A study of Homo sapiens with 9 samples.

Results

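The comparison described here set 3 RNA libraries from HKC-8 cells given a Wnt1 plasmid against 3 from HKC-8 cells given the empty vector pcDNA3, called control. HKC-8 is an established line of human kidney proximal tubular epithelial cells. The members were taken by their titles and treatment labels and make up 6 of the 9 libraries of the series. The labels describe the genotype of the plasmid group as overexpression of the Wnt1 gene and that of the other group as control. They give neither a dose nor a time after transfection, and they leave unsaid whether replicates were separate cultures. The p-values therefore reflect the spread among these libraries only, which may be technical. The remaining 3 libraries came from cells that received KP6, a Klotho peptide, on top of the Wnt1 plasmid, and entered only the shared estimate of spread and of replicate effects.

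Wnt ligands bind Frizzled receptors and LRP5 or LRP6 at the cell surface, which frees beta-catenin from a complex that would otherwise have it degraded. Beta-catenin then acts with TCF and LEF factors on target genes such as AXIN2. In the kidney tubule the pathway is largely quiet after development and is known to return in injury and fibrosis, and ATF3 is a transcription factor that many stresses induce. Interferon-stimulated genes, which make up much of what follows, are switched on in nearly any cell type when factors of the STAT and IRF families bind a short promoter element, and their products block viral RNA and protein synthesis.

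Levels are given as CPM, a gene's expected count scaled to the total of its library, in the order of control replicates 1, 2 and 3 and then replicates 1, 2 and 3 of the libraries labelled Wnt1. A gene was called when its adjusted p from edgeR's quasi-likelihood test, with replicate number as a block and Benjamini-Hochberg adjustment over 13153 tested genes, was under 0.05. Log2 fold changes are Wnt1 minus control and stand with their standard error (SE). The label was checked first. WNT1 (ENSG00000125084), the gene on the plasmid by its label, had 0 expected counts in all 6 libraries, where a count of 0 allows up to 0.109 to 0.142 CPM, so the data give no check of the plasmid and every direction below rests on the labels. Of 30 proximal tubule markers 13 averaged at least 1 CPM, with PAX8 and GGT1 among them and SLC22A6 and SLC22A8 at 0 counts in every library. LRP2, HNF4A, SLC34A1 and AQP1 had 4 or fewer expected counts in every library. Of 11 epithelial markers 10 averaged at least 1 CPM, while CDH1 had 4 or fewer expected counts in every library. Of 5 podocyte markers 2 did, SYNPO and PODXL, and of 9 markers of the thick limb, distal tubule and collecting duct 1 did. Of the 7 endothelial markers 0 did. Of 7 immune markers 1 did, CD68, a lysosomal protein of macrophages, with 571 to 1426 expected counts per library, while PTPRC and CD3E were at 0, and the immune markers summed to 39.4 to 51.2 CPM in control and 27.6 to 52.8 in the libraries labelled Wnt1. The summed level of the proximal tubule markers was 1430 to 1760 CPM in control and 1470 to 1510 CPM in the libraries labelled Wnt1. Single members differed within that sum. CYP24A1 had 3648, 16954 and 16346 expected counts in control and 4809, 2230 and 2494 in the libraries labelled Wnt1. PAX8 had 14922, 13161 and 14816 against 18647, 15453 and 17929. Of the 15 members tested, 11 had a log2 fold change above 0.

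Library totals ran from 21199078 to 27507623 expected counts. Replicate 1 stood apart in every group: on the first principal component, which held 38.1% of the variance, replicate 1 of control and of Wnt1 lay at -37.36 and -38.82, and all libraries of replicates 2 and 3 between 9.21 and 25.07. The share of counts from the mitochondrial genome was 5.18% (control) and 5.26% (Wnt1) in replicate 1, and 7.12% to 7.97% in replicates 2 and 3. The part of these differences in the results was not tested. Counts of called list members are therefore given with the block and also for replicates 2 and 3 alone. Where a response is said to differ between replicate 1 and the others, the spread in that test came from replicates 2 and 3 alone.

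Genes called higher under the Wnt1 label included 18 of 48 tested interferon-stimulated genes and 6 of 35 antioxidant genes, and the 12 called lower included matrix, adhesion and receptor genes. Of 13153 genes tested, 95 were called (0.722%), of which 83 were higher (0.631%) and 12 lower (0.0912%). All 95 were protein coding, and each moved in the same direction in all 3 same-numbered pairs of libraries, against 36.6% of all genes tested. The test asks for a common difference over the pairs, so this share is favoured by the choice of the genes and is given as a description, as is their separation below. The median log2 fold change was 0.88 over the higher genes and -0.59 over the lower ones, and 34 of the higher and 2 of the lower genes went past 1 or below -1. Control and Wnt1 libraries were fully separated for 70 of the 95 (62 higher, 8 lower), against 16.5% of all genes tested. For the other 25 the groups overlapped while each pair kept its direction. In bulk RNA a change in the number of cells of a kind and a change in RNA per cell cannot be told apart.

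The number of called genes moved with single libraries. In replicates 2 and 3 alone it was 3709 of 13041 genes (28.4%), with 1938 higher (14.9%) and 1771 lower (13.6%), and all 95 were among them. In every group these replicates lay closer to each other than to replicate 1, and the p-values of that fit reflect only their spread. Without control replicate 1 the number of called genes was 3345. Without Wnt1 replicate 1, 2 or 3 it was 21, 4 or 5, and without control replicate 2 or 3 it was 0 or 23, where edgeR gave 978 genes with an unadjusted p under 0.05 for the setting with 0. Leaving out KP6 replicate 1, 2 or 3, which lie outside the comparison, gave 162, 21 or 25. Without the block it was 16 (0.122%), 15 higher (0.114%) and 1 lower (0.0076%). DESeq2 with the same block called 498 (3.79%), 334 higher (2.54%) and 164 lower (1.25%), all 95 included. By edgeR 2177 genes (16.6%) had an unadjusted p under 0.05, 1173 of them higher and 1004 lower. All 95 genes kept their direction in each of these settings. The settings share most of their libraries, so this too is favoured by the choice of the genes.

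**Figure D1:**
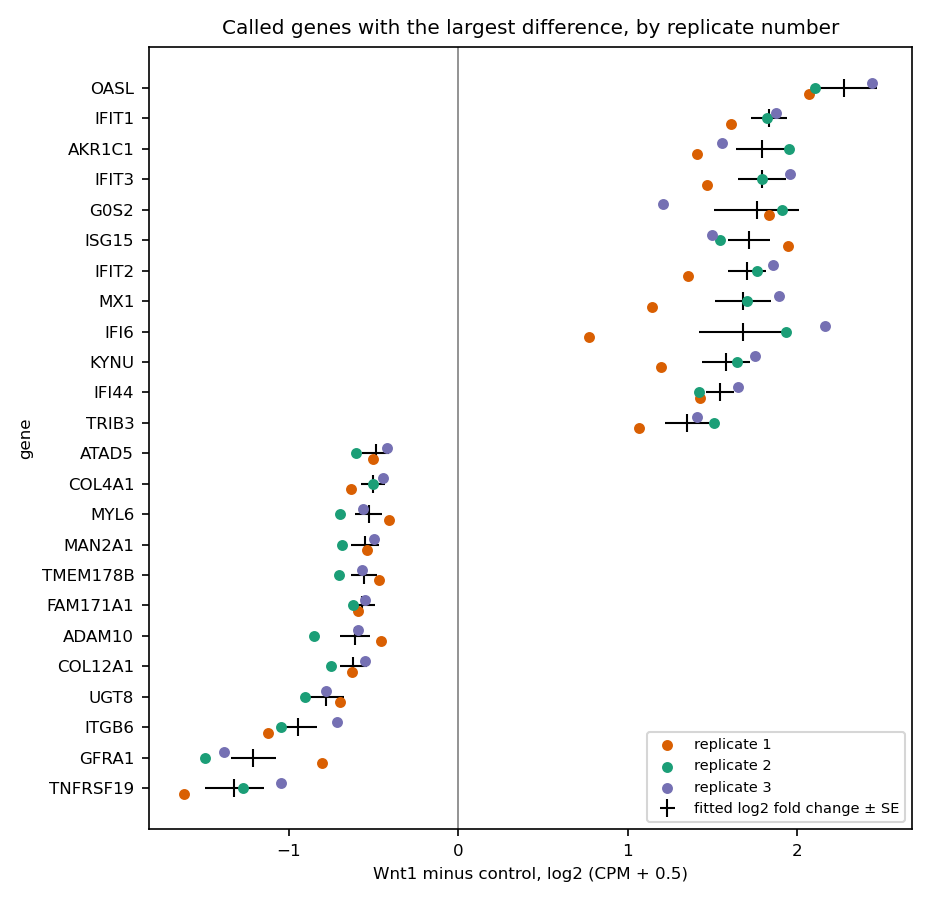
The 24 called genes with the largest differences, 12 higher and 12 lower, with the difference Wnt1 minus control in log2 (CPM + 0.5) on the horizontal axis. Points are the 3 same-numbered pairs of libraries, and black crosses with bars are the fitted log2 fold change ± SE. All pairs of a gene lie on the same side of 0, with IFI6 ranging from 0.77 to 2.17 and FAM171A1 from -0.55 to -0.62.

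Interferon-stimulated genes made up the largest group of higher genes. Of 48 tested, 18 were called higher and 0 lower, against 0.631% and 0.0912% of all genes, and 44 lay above 0. Their median log2 fold change was 0.66, beside 0.00 for all genes tested. The median difference was 0.51, 0.57 and 0.65 in the pairs of replicates 1, 2 and 3, so that replicate 1 held this difference too. Without replicate 1, 36 of the 48 were called higher, in a setting that called 14.9% of all genes higher. The count fell to 7 in the fit to the 6 libraries alone and to 2 without the block. All genes called higher in these settings numbered 9 and 15. Without Wnt1 replicate 1, 2 or 3 the count was 9, 4 and 5, of 15, 4 and 5 genes called higher in all. Without control replicate 2 or 3 it was 0 and 9, of 0 and 22 in all. The count was also 0 without the whole of replicate 2 or of replicate 3, where no gene of any kind was called. All Wnt1 libraries exceeded all control libraries for 24 of the 48, against 7.34% of all genes in that direction.

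The promoters of these genes were searched for the element through which interferon acts. RefSeq promoter windows of 300 bases (GRCh38.p14, 250 bases before to 50 after the start of the gene) were found for 14 of the 18 called members, and the interferon-stimulated response element, searched as AAANNGAAA on both strands, was present in 11 of them (78.6%). It was present in 32 of 40 windows of tested members (80%), 7.04% of the windows of all 10702 tested genes that matched, and 2 of 49 windows of called higher genes outside the list (4.08%). A match describes the letters and is not a measured site. Windows of 6 called members follow, 5′ to 3′ on the strand of the gene, all ahead of the start site, with every match in capitals.
IFIT1, chr10:89392416-89392558 (+ strand): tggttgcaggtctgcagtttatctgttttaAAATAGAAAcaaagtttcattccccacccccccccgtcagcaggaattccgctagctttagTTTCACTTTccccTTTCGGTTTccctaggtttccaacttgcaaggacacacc
IFIT3, chr10:89327811-89327913 (+ strand): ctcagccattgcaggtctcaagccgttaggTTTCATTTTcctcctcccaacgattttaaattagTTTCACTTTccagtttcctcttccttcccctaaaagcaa
ISG15, chr1:1013355-1013429 (+ strand): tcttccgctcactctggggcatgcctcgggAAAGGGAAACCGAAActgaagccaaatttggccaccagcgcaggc
IFI6, chr1:27672246-27672377 (- strand): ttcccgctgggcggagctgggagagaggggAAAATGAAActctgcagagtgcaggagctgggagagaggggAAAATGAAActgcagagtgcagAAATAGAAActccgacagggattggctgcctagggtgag
RIGI, chr9:32526294-32526369 (- strand): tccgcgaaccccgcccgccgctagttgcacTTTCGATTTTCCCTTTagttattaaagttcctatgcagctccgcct
DDX60, chr4:168318766-168318869 (- strand): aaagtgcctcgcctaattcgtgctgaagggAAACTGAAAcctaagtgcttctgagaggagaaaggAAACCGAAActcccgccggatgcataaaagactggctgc

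The IFIT genes lie side by side on chromosome 10 and encode proteins that bind viral RNA ends and hold back its translation. IFIT1 (ENSG00000185745, chromosome 10, 89392546 to 89406486), whose promoter window holds 3 matches, was at 32.6, 10.6 and 10.7 CPM in control and 100.4, 38.9 and 40.5 in the libraries labelled Wnt1. Every Wnt1 library lay above every control library, and replicate 1 was the highest in both groups. The log2 fold change was 1.83 ± 0.10 (adjusted p = 0.0015). IFIT3 (ENSG00000119917) went from 62.4, 17.9 and 17.2 CPM to 173.3, 63.3 and 68.1, again without overlap (1.79 ± 0.14, adjusted p = 0.00515). IFIT2 (ENSG00000119922) was at 64.2, 16.5 and 14.2 CPM against 164.9, 57.1 and 52.7. Here control replicate 1 lay above Wnt1 replicates 2 and 3, although each pair rose (1.71 ± 0.11, adjusted p = 0.00287).

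OASL, an inactive relative of the oligoadenylate synthetases that enhances RNA sensing, had the largest fold change among called genes with a mean of at least 5 CPM. It was at 30.1, 5.39 and 4.38 CPM in control and 127.9, 24.9 and 26.0 in the libraries labelled Wnt1 (2.28 ± 0.20, adjusted p = 0.00703). Control replicate 1 was higher than Wnt1 replicates 2 and 3, so the groups overlapped, while the pairs differed by 2.07, 2.11 and 2.44. The enzymes that make the activator of RNase L rose at lower levels. OAS1 went from 14.7, 8.91 and 9.14 CPM to 21.9, 18.9 and 17.2 (0.88 ± 0.12, adjusted p = 0.0326). OAS2 rose from 1.55, 0.262 and 0.194 CPM to 5.38, 3.07 and 2.84 (2.82 ± 0.41, adjusted p = 0.0361). RSAD2, which encodes viperin, an enzyme that makes a chain-terminating nucleotide, was similarly low at 2.51, 0.337 and 0.194 CPM and reached 12.6, 2.88 and 2.00 (2.83 ± 0.31, adjusted p = 0.0127). For both genes the control libraries of replicates 2 and 3 held few counts, so their fold changes are imprecise.

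ISG15, a ubiquitin-like protein attached to other proteins, was at 38.2, 15.5 and 17.6 CPM in control and 148.6, 46.2 and 50.8 in the libraries labelled Wnt1 (1.72 ± 0.12, adjusted p = 0.00435). The groups did not overlap. HERC5, the ligase that attaches ISG15, went from 101.0, 38.9 and 37.5 CPM to 214.1, 70.1 and 69.0 (0.96 ± 0.10, adjusted p = 0.0112), and its relative HERC6 rose by 0.73 ± 0.08 (adjusted p = 0.0122). MX1, a GTPase that traps viral nucleocapsids, was at 7.22, 5.61 and 5.15 CPM in control and 16.5, 19.4 and 20.5 in the libraries labelled Wnt1 (1.68 ± 0.17, adjusted p = 0.00999). Its pairs differed by 1.14, 1.70 and 1.89, least in replicate 1. IFI6, an inducible protein of the endoplasmic reticulum and mitochondria, went from 13.0, 8.46 and 8.29 CPM to 22.5, 33.7 and 38.9 (1.68 ± 0.26, adjusted p = 0.0461). Its difference was smaller in replicate 1 than in replicates 2 and 3, by -1.31 on the log2 scale (adjusted p of that difference = 0.00013). IFI44 went from 61.1, 19.4 and 18.1 CPM to 165.2, 52.8 and 57.7 (1.54 ± 0.09, adjusted p = 0.0015), with close values of 1.43, 1.42 and 1.65 in the pairs.

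**Figure D2:**
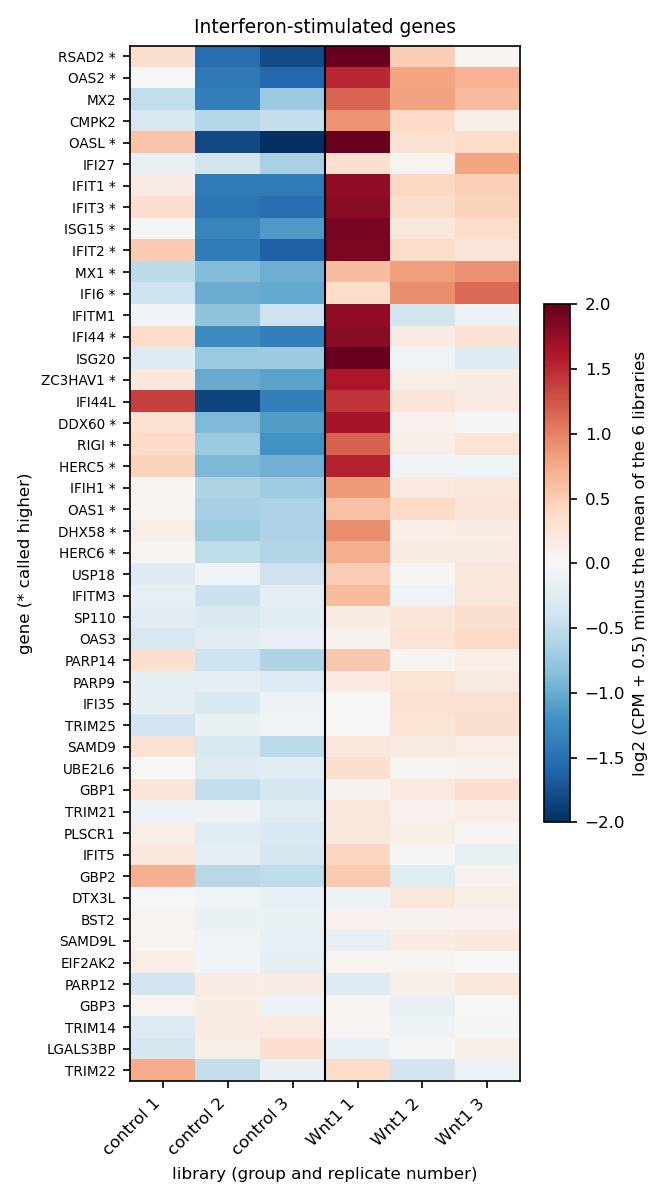
Each tested interferon-stimulated gene (vertical axis, * for called higher) in each of the 6 libraries (horizontal axis), as log2 (CPM + 0.5) minus the mean of the 6 libraries. Replicate 1 is the highest library of its group for many genes such as IFIT1 (32.6 CPM in control and 100.4 in Wnt1), and for the called genes the Wnt1 library of each number is above the control library of that number.

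Sensors of double-stranded RNA rose together. All 3 members of the RIG-I-like family were called: RIGI, which detects triphosphate ends, IFIH1, which encodes the long-RNA sensor MDA5, and DHX58, which encodes their regulator LGP2. RIGI (ENSG00000107201, chromosome 9, 32455705 to 32526324) was at 55.1, 24.8 and 17.9 CPM in control and 95.8, 45.5 and 50.8 in the libraries labelled Wnt1 (1.07 ± 0.15, adjusted p = 0.0315). IFIH1 went from 34.4, 21.8 and 20.2 CPM to 60.4, 38.3 and 39.2 (0.89 ± 0.09, adjusted p = 0.00988). DHX58 went from 16.1, 8.87 and 9.45 CPM to 28.9, 16.3 and 16.5 (0.87 ± 0.13, adjusted p = 0.0399). Control and Wnt1 libraries were fully separated for IFIH1 and DHX58. The helicase DDX60, known as a partner of these sensors, rose by 1.16 ± 0.12 (adjusted p = 0.0111). ZC3HAV1, the zinc finger antiviral protein that sends CpG-rich viral RNA to decay, was the most abundant called member, at 400.3, 171.4 and 165.0 CPM in control against 1057, 373.5 and 383.0 (1.27 ± 0.10, adjusted p = 0.00515).

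The ligands, receptors and transducers of interferon were mostly too low to test or not called. IFNB1 had expected counts of 1, 0 and 0 in control and 1, 1 and 1 in the libraries labelled Wnt1, IFNL1 and IFNL2 had 0 in all 6, and IFNL3 had 3 in Wnt1 replicate 1 and 0 elsewhere. These levels allow no comparison at this depth. Of 24 tested genes of interferon signalling 1 was called higher, against 0.631% of all genes. That gene was IRF7, the factor that amplifies interferon production. IRF7 (ENSG00000185507) was at 9.58, 10.7 and 12.1 CPM in control and 14.4, 20.7 and 20.9 in the libraries labelled Wnt1 (0.80 ± 0.12, adjusted p = 0.0361). The median over the 24 was 0.10, and 17 lay above 0. The test on replicates 2 and 3 alone called 11 higher and 2 lower, against 14.9% and 13.6% of all genes. Of 17 class I antigen presentation genes, another known set of interferon targets, edgeR called 0. At an unadjusted p under 0.05 there were 3 higher and 2 lower, against 1173 and 1004 of all 13153 genes. DESeq2 called 2 higher, against 2.54% of all genes. The test on replicates 2 and 3 alone called 3 in each direction, against 14.9% of all genes higher and 13.6% lower.

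Antioxidant genes formed the next group. NRF2 is a transcription factor that is released from KEAP1 under oxidative or electrophilic stress and binds antioxidant response elements. Of 35 tested members of the NRF2 and oxidative stress list 6 were called higher and 0 lower, against 0.631% and 0.0912% of all genes, and 33 lay above 0. The median log2 fold change was 0.62, with 0.26, 0.76 and 0.66 in the pairs of replicates 1, 2 and 3. Without replicate 1, 25 were called higher and 1 lower, against 14.9% and 13.6% of all genes. The 6 calls became 1 without the block and 1 in the fit to the 6 libraries alone, of 15 and 9 genes called higher in all. Without Wnt1 replicate 1, 2 or 3 they became 2, 0 and 0, of 15, 4 and 5 in all. Without control replicate 2 or 3 they became 0 and 3, of 0 and 22 in all. The libraries did not overlap for 20 of the 35 in the higher direction, against 7.34% of all genes.

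Among the called members were genes of thiol repair, the pentose phosphate pathway and cystine uptake. AKR1C1, an aldo-keto reductase, was at 3.81, 3.48 and 3.40 CPM in control and 10.97, 14.9 and 10.98 in the libraries labelled Wnt1 (1.79 ± 0.15, adjusted p = 0.00673). Close paralogs of AKR1C1 share its sequence, so the split of reads among them is uncertain. SRXN1, which encodes sulfiredoxin, the enzyme that restores oxidised peroxiredoxins, went from 110.1, 146.8 and 144.4 CPM to 258.7, 368.8 and 369.4 (1.33 ± 0.11, adjusted p = 0.00673), although 85% of its exon bases are shared with another gene on the same strand. TXNRD1, the cytosolic thioredoxin reductase, went from 1611, 1527 and 1323 CPM to 2435, 2188 and 2094 (0.62 ± 0.09, adjusted p = 0.0361). None of these 3 genes had overlapping groups. TKT, the transketolase of the non-oxidative pentose phosphate pathway, rose by 0.53 ± 0.07 (adjusted p = 0.0293).

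The cystine-glutamate antiporter consists of a transport subunit encoded by SLC7A11 and a heavy chain encoded by SLC3A2, and both were called. SLC7A11 was at 68.8, 129.3 and 107.8 CPM in control and 105.6, 211.0 and 192.3 in the libraries labelled Wnt1 (0.74 ± 0.12, adjusted p = 0.0452). SLC3A2 was at 100.3, 163.9 and 166.9 CPM against 166.9, 249 and 265 (0.70 ± 0.08, adjusted p = 0.0141). For both, replicate 1 was the lowest library in its group and the groups overlapped. The antioxidant response element, searched as TGACNNNGC on both strands, was present in 15 of 63 promoter windows of called higher genes (23.8%), 7 of 26 windows of tested NRF2 list members (26.9%) and 15.1% of windows of all tested genes. The element was in 1 of 4 windows of called NRF2 list members. It was in 12 of 49 windows of called higher genes outside the interferon list (24.5%). Windows of 2 called genes that hold it ahead of the start site are given as examples, TXNRD1 of the NRF2 list and SLC3A2 outside it. Other called genes hold it too. In SLC3A2 the match contains the AP-1 site TGACTCA.
SLC3A2, chr11:62881632-62881698 (+ strand): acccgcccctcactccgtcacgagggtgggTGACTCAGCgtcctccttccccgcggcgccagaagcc
TXNRD1, chr12:104215650-104215718 (+ strand): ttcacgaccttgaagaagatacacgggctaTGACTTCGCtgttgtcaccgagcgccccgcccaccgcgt

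Genes of the integrated stress response, in which ATF4 raises amino acid supply and tRNA charging, gave few calls. Of 39 tested, 3 were called higher (TRIB3, SLC3A2 and WARS1) and 0 lower, against 0.631% and 0.0912% of all genes, with a median of 0.14 and 30 above 0. TRIB3, a pseudokinase that restrains AKT and ATF4, was at 130.9, 93.5 and 100.7 CPM in control and 274.3, 267.5 and 268.5 in the libraries labelled Wnt1 (1.35 ± 0.13, adjusted p = 0.00965). The Wnt1 libraries of TRIB3 lay within a narrow range and far above every control library. WARS1, the cytosolic tryptophanyl-tRNA synthetase and also a known interferon target, went from 183.7, 210.3 and 209.2 CPM to 262.0, 285.1 and 289.2 (0.50 ± 0.07, adjusted p = 0.0289), with 10.6% of its exon bases opposite another gene. The list's median difference was 0.39 in the pair of replicate 1 and 0.01 and -0.01 in the pairs of replicates 2 and 3. The test on replicates 2 and 3 alone called 12 members higher and 7 lower, against 14.9% and 13.6% of all genes, so the share called lower is near that of all genes.

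Chaperones of the endoplasmic reticulum had a median above 0 and no call. Of 33 tested genes of the unfolded protein response edgeR called 0, with 11 higher and 0 lower at an unadjusted p under 0.05. Of all 13153 genes 1173 were higher and 1004 lower at that p. DESeq2 called 7 of the 33 higher, against 2.54% of all genes. The median was 0.25, with 0.02, 0.39 and 0.47 in the pairs, and 29 lay above 0. MANF, a secreted chaperone partner, was at 24.4, 21.5 and 22.7 CPM in control and 32.9, 37.9 and 37.3 in the libraries labelled Wnt1 (0.68 ± 0.11, adjusted p = 0.0505). HYOU1, a large chaperone, was at 0.54 ± 0.09 (adjusted p = 0.0515), and SYVN1, the ubiquitin ligase of the disposal pathway, at 0.73 ± 0.13 (adjusted p = 0.0577). All 3 had groups that did not overlap. HSPA5, which encodes the main chaperone BiP and was named after its values were seen, was at 1042, 708 and 639 CPM in control and 1615, 2038 and 2039 in the libraries labelled Wnt1 (1.27 ± 0.26, adjusted p = 0.0982). Its difference was smaller in replicate 1 by -0.96 (adjusted p of that difference = 1.56e-05). In replicates 2 and 3 alone 20 of the 33 were called higher and 2 lower (14.9% and 13.6% of all genes). FICD, the enzyme that switches BiP off by AMPylation and no member of the list, was called and was also named after its values were seen. FICD was at 9.21, 6.17 and 6.31 CPM against 14.9, 14.4 and 15.03 (1.06 ± 0.17, adjusted p = 0.0461). Its promoter window holds an endoplasmic reticulum stress element, searched as CCAAT, 9 bases and CCACG on both strands, which 7 of 29 windows of the unfolded protein list (24.1%) and 0.131% of all tested windows hold.
FICD, chr12:108515093-108515171 (+ strand): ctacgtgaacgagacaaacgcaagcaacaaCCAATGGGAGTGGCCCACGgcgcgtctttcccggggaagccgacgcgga

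Sterol synthesis differed between replicate 1 and the other replicates more than any other list drawn in the plot of list medians. Of 31 tested genes of sterol synthesis and uptake 1 was called higher, SREBF1, against 0.631% of all genes. The median of the 31 was nevertheless 1.00, and 30 lay above 0. The median difference was -0.04 in the pair of replicate 1 and 1.65 and 1.70 in the pairs of replicates 2 and 3, and for 26 of the 31 the response differed between replicate 1 and the others past the threshold, against 24.6% of all genes. The test on replicates 2 and 3 alone called 28 higher and 0 lower, again against 14.9% and 13.6%. SREBF1, which encodes the lipid regulator SREBP1, was at 148.5, 102.9 and 121.2 CPM in control and 210.6, 200.5 and 220.2 in the libraries labelled Wnt1 (0.80 ± 0.11, adjusted p = 0.0325). HMGCS1, an enzyme early in the mevalonate pathway, was named after its values were seen. HMGCS1 was at 858, 117 and 99.2 CPM in control and 609, 623 and 626 in the libraries labelled Wnt1 (1.25 ± 0.85, adjusted p = 0.524), so control replicate 1 was the highest of the 6 and the other control libraries the lowest. Of its exon bases 15% lie opposite another gene. The Wnt1 libraries of HMGCS1 were even and the control libraries were not.

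Fatty acid synthesis had the same shape. Of 18 tested genes edgeR called 0, with 9 higher and 1 lower at an unadjusted p under 0.05, against 1173 and 1004 of all 13153 genes. DESeq2 called 4 higher, against 2.54% of all genes. The median was 0.47 over all libraries, -0.11 in the pair of replicate 1, and 0.71 and 0.82 in the others. FASN, the fatty acid synthase (ENSG00000169710), was at 1466, 447 and 552 CPM in control and 1993, 2316 and 2485 in the libraries labelled Wnt1. The groups did not overlap, yet the pairs differed by 0.44, 2.37 and 2.17 (1.61 ± 0.43, adjusted p = 0.154). ACSS2, which makes acetyl-CoA from acetate, was at 84.6, 18.8 and 17.8 CPM against 116.7, 93.8 and 101.7 (1.68 ± 0.47, adjusted p = 0.168). AGPAT2, an acyltransferase of phosphatidic acid synthesis, was at 0.45 ± 0.08 (adjusted p = 0.0707). In replicates 2 and 3 alone 14 of the 18 were called higher (14.9% of all genes) and 2 lower (13.6%), FASN among the higher (2.29, adjusted p = 2.74e-09). That p reflects only the spread among replicates 2 and 3, which lay closer to each other than to replicate 1.

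**Figure D3:**
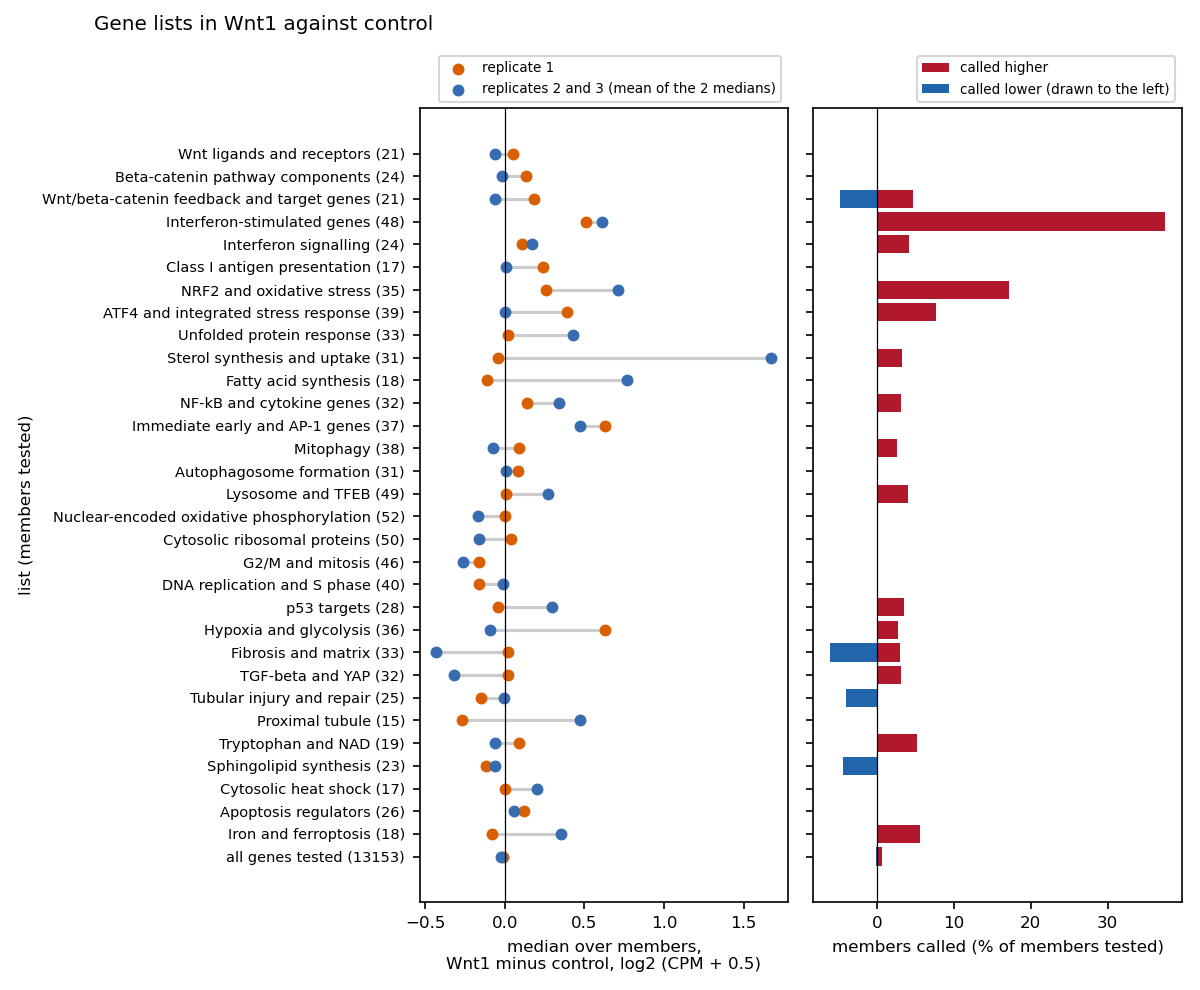
Left, the median over tested members of each gene list of the difference Wnt1 minus control in log2 (CPM + 0.5), for the pair of replicate 1 (orange) and as the mean of the medians of the pairs of replicates 2 and 3 (blue). Right, the percentage of members called higher (red, to the right) and lower (blue, to the left). Interferon-stimulated genes lie to the right of 0 in both sets and have the longest red bar (18 of 48), and sterol synthesis lies near 0 in replicate 1 (-0.04) and far to the right in replicates 2 and 3.

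Cytokine and immediate early genes had medians above 0 and few calls. Of 32 tested NF-kB and cytokine genes 1 was called higher, CSF3, the granulocyte colony-stimulating factor, against 0.631% of all genes. The median of the 32 was 0.36, and 27 lay above 0. Without replicate 1, 17 of the 32 were called higher and 2 lower, against 14.9% and 13.6% of all genes. CSF3 was low, at 0.663, 0.524 and 0.659 CPM in control and 2.58, 2.31 and 2.46 in the libraries labelled Wnt1 (2.01 ± 0.32, adjusted p = 0.0444), without overlap. IRAK2, a kinase of Toll-like receptor signalling outside the list and named after its values were seen, was called at 0.70 ± 0.10 (adjusted p = 0.0361). Of 37 tested immediate early and AP-1 genes edgeR called 0, with 8 higher and 0 lower at an unadjusted p under 0.05. Of all 13153 genes 1173 were higher and 1004 lower at that p. DESeq2 called 5 of the 37 higher, against 2.54% of all genes. Without replicate 1, 23 of the 37 were called higher and 6 lower, against 14.9% and 13.6%. Leaving out KP6 replicate 1 gave 9 of the 37 higher, against 139 of all 13305 genes tested in that setting. The median of the 37 was 0.59, with 0.63, 0.55 and 0.40 in the pairs, and 31 lay above 0. KLF4, a zinc finger factor, was at 11.1, 2.77 and 3.14 CPM in control and 65.8, 10.6 and 11.4 in the libraries labelled Wnt1 (2.204 ± 0.349, adjusted p = 0.0548). Control replicate 1 lay between Wnt1 replicates 2 and 3, while each pair differed by at least 1.71. KLF2 was at 1.25 ± 0.33 (adjusted p = 0.138), and MAFG, a small MAF partner of NRF2 and AP-1, at 0.59 ± 0.16 (adjusted p = 0.137).

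ATF3 (ENSG00000162772, chromosome 1, 212565334 to 212620777), named in the study's title, was at 19.1, 8.01 and 8.83 CPM in control and 31.1, 93.3 and 93.5 in the libraries labelled Wnt1. Every Wnt1 library lay above every control library, but replicate 1 was the highest control and the lowest Wnt1 library. The log2 fold change was 2.18 ± 1.12 (adjusted p = 0.394), and it was 3.50 in replicates 2 and 3 alone (adjusted p = 7.43e-11). The latter p reflects only the spread among replicates 2 and 3, which lay closer to each other than to replicate 1. The pair of replicate 1 differed by 0.69, and its response was smaller by -2.76 (adjusted p of that difference = 7.39e-09). ATF3 was thus not called over all libraries, and the SE shows how unevenly the pairs moved.

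Autophagy receptors and mitophagy genes, the other subject of the title, had medians near 0. Of 38 tested mitophagy genes 1 was called higher, SQSTM1, against 0.631% of all genes. The median of the 38 was 0.01, and 20 lay above 0. SQSTM1 encodes p62, which links ubiquitinated cargo to autophagosomes and is also a target and activator of NRF2. It was at 1160, 1084 and 1180 CPM in control and 2068, 2692 and 2672 in the libraries labelled Wnt1 (1.13 ± 0.13, adjusted p = 0.015), with no overlap and with 22% of its exon bases opposite another gene. Of the 38, 2 were called higher and 8 lower in replicates 2 and 3 alone, where 14.9% and 13.6% of all genes were. Of 31 autophagosome genes edgeR called 0, with 6 higher and 1 lower at an unadjusted p under 0.05, against 1173 and 1004 of all 13153 genes. DESeq2 called 1 higher, against 2.54% of all genes. The median of the 31 was 0.01. Replicates 2 and 3 alone gave 8 higher and 3 lower, against 14.9% and 13.6% of all genes.

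Lysosomal genes, many of which TFEB controls, had 2 of 49 members called higher, against 0.631% of all genes. Both encode ion channels or exchangers of the lysosomal membrane. MCOLN1, the calcium channel TRPML1, was at 8.55, 8.94 and 9.53 CPM in control and 13.6, 12.9 and 16.0 in the libraries labelled Wnt1 (0.68 ± 0.10, adjusted p = 0.0396). CLCN7, the chloride-proton exchanger, was at 129.4, 99.0 and 120.3 CPM against 180.1, 171.8 and 177.7 (0.64 ± 0.09, adjusted p = 0.0361), with 16.1% of its exon bases opposite another gene. Neither gene had overlapping groups. The list's median was 0.18, with 36 above 0, and in replicates 2 and 3 alone 26 were called higher and 5 lower (14.9% and 13.6% of all genes). The CLEAR element of TFEB, searched as TCACGTGA, was in 5 of 33 windows of the list (15.2%) and 2.01% of all tested windows, and MCOLN1 holds 2 copies.
MCOLN1, chr19:7522552-7522623 (+ strand): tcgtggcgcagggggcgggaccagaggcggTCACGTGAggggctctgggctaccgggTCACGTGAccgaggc

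The largest called decreases were in receptors and adhesion molecules. TNFRSF19 (ENSG00000127863, chromosome 13, 23570370 to 23676104), a TNF receptor family member known as a Wnt target and as an inhibitor of Wnt signalling, was at 21.4, 58.9 and 58.9 CPM in control and 6.62, 24.1 and 28.2 in the libraries labelled Wnt1. It fell in each pair, with a log2 fold change of -1.32 ± 0.17 (adjusted p = 0.0269), while control replicate 1 lay below Wnt1 replicates 2 and 3. GFRA1, the co-receptor through which GDNF signals in kidney development, was at 74.1, 429.2 and 420.9 CPM against 42.2, 151.9 and 161.3 (-1.21 ± 0.13, adjusted p = 0.0127), with the same overlap. ITGB6, the subunit of an epithelial integrin that activates latent TGF-beta, was at 52.4, 90.3 and 79.5 CPM against 23.8, 43.5 and 48.3 (-0.95 ± 0.12, adjusted p = 0.0187). The groups did not overlap for ITGB6, and 20.6% of its exon bases are shared with another gene on the same strand. ITGB6 was also the only called member of 25 tubular injury and repair genes, against 0.0912% of all genes called lower. Of the 25, replicates 2 and 3 alone called 11 higher and 5 lower, against 14.9% and 13.6% of all genes.

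The few called matrix genes went in both directions. Of 33 tested fibrosis and matrix genes 1 was called higher and 2 lower, against 0.631% and 0.0912% of all genes. The median of the 33 was -0.28, and 8 lay above 0. Fibronectin, FN1, rose from 4936, 5621 and 5887 CPM to 6956, 8303 and 8461 (0.55 ± 0.06, adjusted p = 0.0166), with no overlap. COL4A1, a chain of basement membrane collagen, fell from 1241, 1495 and 1501 CPM to 800, 1054 and 1101 (-0.50 ± 0.07, adjusted p = 0.0325), also with no overlap. COL12A1, a collagen that decorates fibrils, fell from 116.0, 184.5 and 172.6 CPM to 74.8, 109.5 and 117.9 (-0.62 ± 0.08, adjusted p = 0.0268), with replicate 1 of control below Wnt1 replicate 3. In replicates 2 and 3 alone 20 of the 33 were called lower (13.6% of all genes) and 5 higher (14.9%), while the median in the pair of replicate 1 was 0.02. Of 32 TGF-beta and YAP genes 1 was called higher, against 0.631% of all genes. That gene was BAMBI, a pseudoreceptor that blocks TGF-beta signalling and a known Wnt target. Of the 32, 15 were called lower and 1 higher in replicates 2 and 3 alone, against 13.6% and 14.9% of all genes. BAMBI was at 1.44, 1.35 and 1.20 CPM in control and 3.45, 4.10 and 3.59 in the libraries labelled Wnt1 (1.5 ± 0.24, adjusted p = 0.0466). Fibroblast and pericyte markers, 2 of 7 of which averaged at least 1 CPM, summed to 23.9 to 36.9 CPM in control and 18.2 to 24.2 in the libraries labelled Wnt1, and their part in the matrix values was not tested.

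The remaining called decreases covered membrane, cytoskeletal and replication genes. UGT8, which makes galactosylceramide, was the 1 called member of 23 sphingolipid genes, against 0.0912% of all genes called lower. It was at 44.9, 46.6 and 42.1 CPM in control and 27.4, 24.7 and 24.3 in the libraries labelled Wnt1 (-0.78 ± 0.11, adjusted p = 0.0298). No Wnt1 library came near a control library, whatever its replicate number. Of the 23, replicates 2 and 3 alone called 2 higher and 5 lower, against 14.9% and 13.6% of all genes. ADAM10, a sheddase that cleaves Notch, cadherins and Klotho, fell from 240.7, 273.3 and 238.2 CPM to 175.2, 151.3 and 157.8 (-0.61 ± 0.09, adjusted p = 0.0361). MAN2A1, a mannosidase of N-glycan processing in the Golgi, fell by 0.55 on the log2 scale (SE 0.08, adjusted p = 0.038). MYL6, a myosin light chain, had a log2 fold change of -0.53 ± 0.08 (adjusted p = 0.0361), with 12% of exon bases opposite another gene. ATAD5, which unloads the PCNA clamp after replication, was at -0.49 ± 0.08 (adjusted p = 0.047). FAM171A1 (-0.57 ± 0.08, adjusted p = 0.0269) and TMEM178B (-0.56 ± 0.08, adjusted p = 0.0325) completed the 12.

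No mitotic gene was called. Of 46 tested G2/M genes edgeR called 0, with 0 higher and 20 lower at an unadjusted p under 0.05, against 1173 and 1004 of all 13153 genes. DESeq2 called 5 lower, against 1.25% of all genes. The median was -0.21, with -0.16, -0.31 and -0.22 in the pairs, and 5 of 46 lay above 0. The libraries did not overlap for 22 of the 46 in the lower direction, against 9.12% of all genes, and 26 were called lower in replicates 2 and 3 alone, against 13.6%. For 10 of the 46 the response of replicate 1 differed from that of the others, against 24.6% of all genes. CDK1, the kinase of mitotic entry, was at 91.9, 103.7 and 83.3 CPM in control and 68.6, 61.7 and 62.6 in the libraries labelled Wnt1 (-0.50 ± 0.10, adjusted p = 0.085). ASPM, a spindle pole protein, was at -0.53 ± 0.10 (adjusted p = 0.0689) and the kinetochore motor CENPE at -0.69 ± 0.14 (adjusted p = 0.0843). Of 40 replication genes edgeR called 0, with 0 higher and 5 lower at an unadjusted p under 0.05, and DESeq2 called 0. Replicates 2 and 3 alone gave 5 higher and 4 lower, against 14.9% and 13.6% of all genes.

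Respiratory chain and ribosomal protein genes had medians just under 0. Of 52 nuclear-encoded respiratory genes edgeR called 0 and DESeq2 0, with 4 lower at an unadjusted p under 0.05 and a median of -0.10. Of 50 cytosolic ribosomal protein genes edgeR called 0 and DESeq2 1 lower, with 8 lower at an unadjusted p under 0.05 and a median of -0.07. Of all 13153 genes 1004 were lower at that unadjusted p, and DESeq2 called 1.25% lower. In replicates 2 and 3 alone 11 of the 52 and 13 of the 50 were called lower, against 13.6% of all genes, and 0 higher, against 14.9%. Of 13 mitochondrially encoded genes edgeR and DESeq2 called 0, with 0 at an unadjusted p under 0.05, and replicates 2 and 3 alone gave 1 in each direction.

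Genes of the Wnt pathway itself are described next. With 0.722% of all genes called, a count of 0 in lists of this size does not set them apart from other genes. Of 36 ligands and receptors 21 were expressed enough to be tested, and edgeR called 0 of them. At an unadjusted p under 0.05 there were 3 higher and 2 lower, against 1173 and 1004 of all 13153 genes. DESeq2 called 1 in each direction, against 2.54% of all genes higher and 1.25% lower. Without replicate 1, 3 were called higher and 6 lower, against 14.9% and 13.6% of all genes. WNT7B, the ligand of the collecting duct, was at 66.4, 33.7 and 36.7 CPM in control and 74.2, 51.8 and 50.7 in the libraries labelled Wnt1 (0.44 ± 0.10, adjusted p = 0.112). The receptor FZD6 was at 104.1, 105.5 and 93.8 CPM against 84.0, 79.3 and 79.7 (-0.29 ± 0.08, adjusted p = 0.134), with no overlap. ROR1, a receptor of non-canonical Wnt ligands, was at 5.71, 14.6 and 14.2 CPM against 4.84, 7.60 and 5.97 (-0.81 ± 0.20, adjusted p = 0.128). RNA of Frizzled and LRP receptors was present. By the deposited FPKM, which scales for gene length, FZD6 was at 23.3 to 30.1 and the co-receptor LRP6 at 11.1 to 15.3 over the 6 libraries. Which receptor a Wnt1 ligand would use was not tested.

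The components inside the cell gave no call. CTNNB1 (ENSG00000168036), which encodes beta-catenin, was at 329.0, 304.2 and 274.1 CPM in control and 318.9, 257.5 and 268.1 in the libraries labelled Wnt1 (-0.08 ± 0.07, adjusted p = 0.656), and the groups overlapped. Of 24 tested components edgeR called 0, with 2 higher and 1 lower at an unadjusted p under 0.05, against 1173 and 1004 of all 13153 genes. DESeq2 called 0 of the 24. Replicates 2 and 3 alone gave 3 higher and 1 lower, against 14.9% and 13.6% of all genes. The smallest p-values were those of the scaffold DVL2 (0.35 ± 0.09, adjusted p = 0.129), the destruction complex scaffold AXIN1 (0.32 ± 0.10, adjusted p = 0.198) and the beta-catenin cofactor PYGO1 (-0.34 ± 0.13, adjusted p = 0.252).

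Known targets of beta-catenin gave 1 call in each direction among 21 tested, FN1 higher and TNFRSF19 lower. Of all genes 0.631% were called higher and 0.0912% lower. The median of the 21 was -0.12, and 9 lay above 0. Replicates 2 and 3 alone gave 5 in each direction, against 14.9% of all genes higher and 13.6% lower. AXIN2, the target used most widely as a readout, was tested and not called. It had expected counts of 66, 27 and 27 in control and 65, 17 and 23 in the libraries labelled Wnt1. AXIN2 was thus low throughout and highest in replicate 1 of both groups. LGR5 and NKD1 had 3 or fewer counts in each library. The TCF motif, searched as CTTTGATC on both strands, was in 0 of 63 promoter windows of called higher genes and 0 of 11 of called lower genes, and in 0.383% of all tested windows, which says only that these letters are not in these windows. KL, which encodes Klotho, was low at 4.24, 3.74 and 3.72 CPM in control and 1.60, 2.93 and 2.17 in the libraries labelled Wnt1. The groups of KL did not overlap, and its log2 fold change was -0.83 ± 0.30 (adjusted p = 0.235).

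The responses of replicate 1 and of replicates 2 and 3 were compared directly. Replicate 1 is 1 library per group, so the spread in this test came from replicates 2 and 3 alone. Those lay closer to each other than to replicate 1. The test therefore does not measure how far another library of the kind of replicate 1 would differ. For 3235 of 13153 genes (24.6%) the Wnt1 minus control difference itself differed between the sets, and for 2703 of these the signs were opposite. Across all tested genes the difference in the pair of replicate 1 had a correlation of -0.07 with the mean of the pairs of replicates 2 and 3, and the pairs of replicates 2 and 3 correlated at 0.76 with each other. These are descriptions across genes, which are not independent, and the pairs share normalization by library total. Of the 95 called genes 12 also had a response that differed in size between the sets. CD44, the hyaluronan receptor, was named after its values were seen to show opposite signs. CD44 was at 172.3, 350.2 and 329.6 CPM in control and 368.3, 221.8 and 207.6 in the libraries labelled Wnt1, higher in replicate 1 and lower in the others (-0.12 ± 0.36, adjusted p = 0.909). The responses of CD44 in replicate 1 and in replicates 2 and 3 differed by 1.77 (adjusted p of that difference = 5.66e-08).

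**Figure D4:**
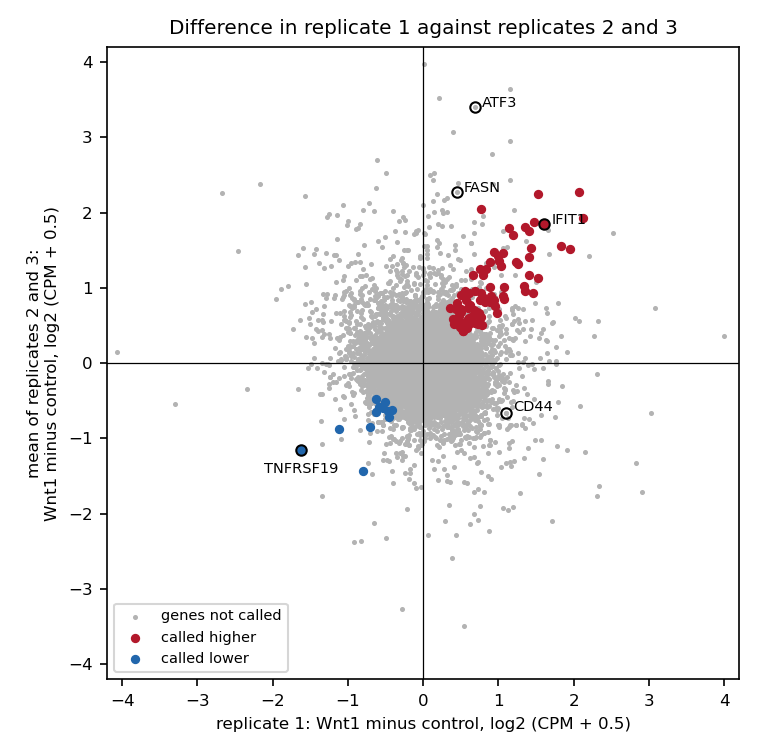
Each tested gene as a point, with the Wnt1 minus control difference of replicate 1 on the horizontal axis and the mean of the differences of replicates 2 and 3 on the vertical axis, both in log2 (CPM + 0.5). Called genes (red higher, blue lower) lie in the upper right and lower left, which the requirement of a common difference over pairs favours, and CD44 lies at the lower right with opposite signs.

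**Figure D5:**
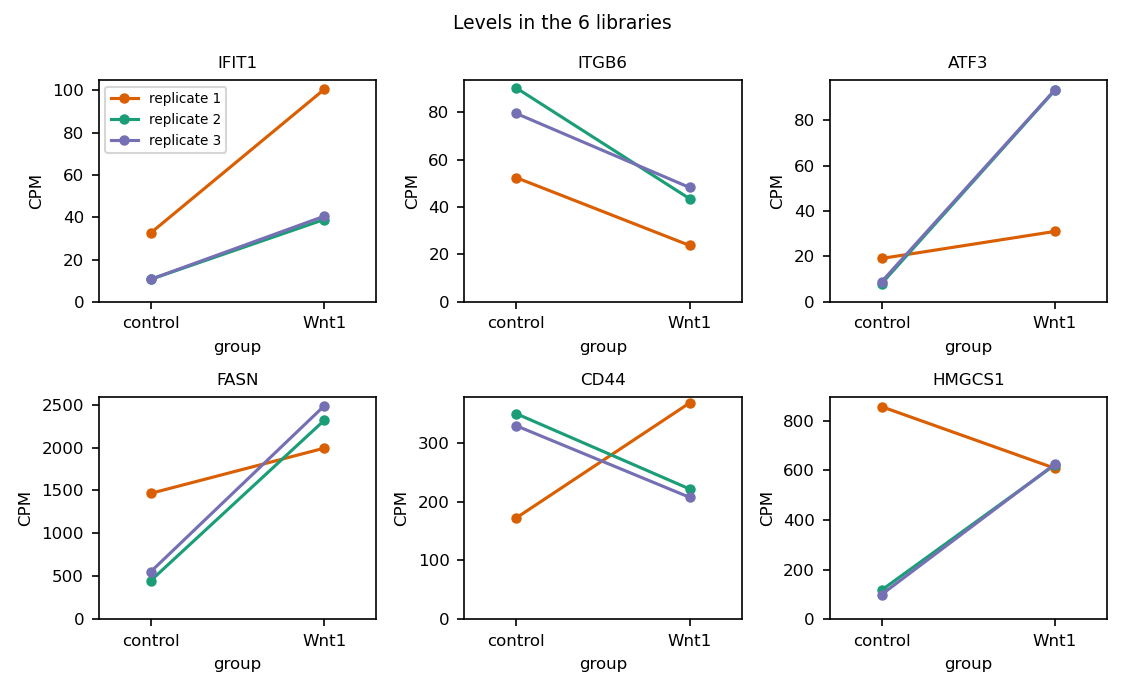
CPM of 6 genes in the 6 libraries, with a line joining the control and Wnt1 library of each replicate number. The lines of IFIT1 rise and those of ITGB6 fall in all 3 pairs, ATF3 and FASN rise steeply in replicates 2 and 3, the control libraries of HMGCS1 differ more than its Wnt1 libraries, and CD44 rises in replicate 1 and falls in the others.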

How the data were processed

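HKC-8 poly(A) RNA was measured in 9 libraries, 3 per group, by RNA sequencing on an Illumina NovaSeq with a NEBNext Ultra kit, which is not stated to keep strand, per the labels' protocols. The submitters' processing notes name build hg38 and the tools HISAT2, RSEM, StringTie 1.3.1, fastp 0.18.0 and Bowtie2 2.2.8. What each tool did, and the annotation release, is not given in the sources used here. Per gene and library, the authors deposited an expected count (an estimated count that need not be whole) and an FPKM value for 20323 genes, per the file headers, and 87.6% of the expected counts were whole. Estimated counts divide reads between genes with shared sequence, so paralogs and overlapping genes are uncertain, and reads of antisense partners cannot be told apart without strand. Of the gene IDs 20171 matched GENCODE release 29 on GRCh38, which gave 1-based coordinates and exon overlaps.

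Expected counts were rounded, filtered with filterByExpr (minimum count 10, minimum total 15), scaled by TMM and fitted with edgeR 4.0.16 in R 4.3.3 (robust quasi-likelihood, two-sided) to all 9 libraries with 3 group means and replicate number as a block. A second fit on 6 means tested whether the response of replicate 1 differed from that of replicates 2 and 3, with its spread taken from the latter alone. The script was tested on simulated data. CPM were computed from library totals of 21199078 to 27507623, where 0 counts allow up to 3 counts (counting error only). Same-numbered libraries, numbered in the titles, were taken as pairs. They deviated together from their group means (correlations of 0.11 to 0.672 in 9 pairs), which replicate 1 standing apart in each group favours. Between groups, replicates 2 and 3 of unlike number correlated about as well, at 0.154 to 0.398. The values therefore do not tell whether replicates 2 and 3 are rightly matched by number.

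Members, 40 gene lists (1131 of 1135 entries matched) and tests were chosen with earlier results of these data known. Named genes are WNT1, ATF3, CTNNB1 and KL, the 12 largest called changes in each direction (mean of at least 5 CPM, same sign in all pairs), called list members or, in lists with no call, up to 3 with the smallest p. Any other gene is said to be named after its values were seen. This also holds for genes given only for their level (cell type markers, interferon ligands, LRP6, AXIN2, LGR5 and NKD1). Some genes are not reported here. Promoters came from RefSeq (GRCh38.p14) for 74 of the 95 called genes and 10702 tested genes. Alternatives were DESeq2 1.42.0, other size factors and filters, no block, the 6 libraries alone, and each library or replicate number left out.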

Additional observations from a re-analysis of the deposited data

Results flagged for a closer look

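The Wnt1 minus control difference was tested for a change between replicate 1 and replicates 2 and 3, and 3235 genes passed. The values below are the difference in replicate 1 minus that in replicates 2 and 3, in log2 units, for the named genes that passed, and the replicate numbers have no stated meaning beyond the title. Lipid genes had a smaller difference in replicate 1, with HMGCS1 at -3.02, ACSS2 at -1.95 and FASN at -1.81. Among interferon-stimulated genes OAS2 was at -1.86, IFI6 at -1.31, MX1 at -0.69, IFIT2 at -0.47 and IFIT3 at -0.42, each higher in all 3 pairs. ATF3 was at -2.76. Stress genes had values of -0.96 for HSPA5, -0.47 for SYVN1, -0.40 for SQSTM1 and -0.39 for TRIB3, and the metabolic genes PPIF and KYNU of -0.53 and -0.51. A more positive difference in replicate 1 was found for CD44 at 1.77, ROR1 at 0.86, KLF4 at 0.69, GFRA1 at 0.64 and UPP1 at 0.54. Replicate 1 is 1 library per group, and the spread in this test came from replicates 2 and 3 alone. Groups of 3 libraries were too small for a check of single outlying values.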

How the results depend on the processing

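The 95 genes called with the replicate block became 16 in the fit with no replicate block (15 higher, 1 lower, 1475 at an unadjusted p under 0.05), all 16 among the 95. The number was 498 with DESeq2, 9 with the control and Wnt1 libraries alone (8 of them among the 95, 1762 at an unadjusted p under 0.05), and 85 to 110 with other size factors or filters. Leaving out a library or a replicate number gave 0 to 3709, with 0 by edgeR without control replicate 2, replicate 2 or replicate 3 (978, 512 and 1261 at an unadjusted p under 0.05), where DESeq2 was not run. All 95 kept their direction in every setting run, which the shared libraries and the choice of the genes favour. The number of genes whose response differed between the replicate sets stayed within 1.5 times of 3235 in the settings run. CD44, which was not called, turned sign without Wnt1 replicate 2 or 3 (0.03, 0.05), control replicate 2 or 3 (0.15, 0.16) or replicate 2 or 3 (0.17, 0.18, lowest -0.64 without replicate 1). The cause was not tested. Low genes such as RSAD2, OAS2 and CSF3 are limited by counts of few reads.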

Other observations

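Several genes called higher belonged to groups with a single call, where 0.631% of all genes were called higher. KYNU, the kynureninase of tryptophan breakdown, was at 16.4, 12.5 and 11.04 CPM in control and 38.2, 40.1 and 38.4 in the libraries labelled Wnt1, with no overlap (1.58 ± 0.14, adjusted p = 0.00822 by edgeR). It was the called member among 19 tested genes of tryptophan and NAD metabolism, whose median was -0.02. Of the 19, replicates 2 and 3 alone called 5 higher and 4 lower, against 14.9% and 13.6% of all genes. G0S2, an inhibitor of adipose triglyceride lipase, was at 13.6, 3.70 and 5.04 CPM against 49.7, 15.3 and 12.3 (1.76 ± 0.25, adjusted p = 0.0361 by edgeR), rising in each pair while control replicate 1 lay above Wnt1 replicate 3. SFN, the 14-3-3 sigma checkpoint protein, was the called member of 28 p53 targets (median 0.17). It was at 110.2, 88.5 and 107.6 CPM against 220.8, 268.1 and 257.4 (1.299 ± 0.159, adjusted p = 0.0187 by edgeR). Of the 28, replicates 2 and 3 alone called 13 higher and 2 lower, against 14.9% and 13.6% of all genes. EPAS1, which encodes the hypoxia factor HIF-2alpha, was the called member of 36 hypoxia and glycolysis genes, at 165.3, 61.4 and 62.0 CPM against 253.5, 117.5 and 118.3 (0.85 ± 0.10, adjusted p = 0.0158 by edgeR). The median of that list was 0.63 in the pair of replicate 1 and -0.12 and -0.07 in the pairs of replicates 2 and 3, and replicates 2 and 3 alone called 8 higher and 16 lower, against 14.9% and 13.6% of all genes. Of 18 iron and ferroptosis genes SLC7A11 was called, with a median of 0.24. Of the 18, replicates 2 and 3 alone called 10 higher and 5 lower, against 14.9% and 13.6% of all genes.

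Of the 95 called genes 52 were in no list, and the following were named after their values were seen. Nucleoside salvage enzymes appeared as a pair, with UPP1, uridine phosphorylase, at 91.1, 112.1 and 118.6 CPM in control and 251.1, 214.6 and 224.6 in the libraries labelled Wnt1 (1.13 ± 0.12, adjusted p = 0.0127 by edgeR). PNP, purine nucleoside phosphorylase, went from 54.6, 48.3 and 49.5 CPM to 83.1, 69.3 and 71.2 (0.58 ± 0.08, adjusted p = 0.0331 by edgeR). Neither had overlapping groups. PPIF, which encodes cyclophilin D of the mitochondrial permeability pore, went from 123.3, 116.4 and 119.7 CPM to 236.3, 332.4 and 324.2 (1.31 ± 0.15, adjusted p = 0.0158 by edgeR). SLCO2B1, an organic anion transporter, DNMT3B, a DNA methyltransferase, and SRC, the tyrosine kinase, rose by 0.72 ± 0.08, 0.63 ± 0.09 and 0.53 ± 0.08 on the log2 scale, each without overlap. TGM2, the transglutaminase that crosslinks matrix, went from 904.6, 280.5 and 295.7 CPM to 1301, 380.1 and 397.4 (0.49 ± 0.08, adjusted p = 0.0452 by edgeR), with replicate 1 of both groups above the other 4 libraries. KRT17 rose at a low level, from 0.332, 0.262 and 0.310 CPM to 1.49, 1.42 and 1.503, and THEMIS2 from 5.195, 0.412 and 0.465 CPM to 15.9, 1.51 and 1.59.

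Other lists without a call were metallothioneins and zinc (10 tested, median -0.48), proximal tubule (15, 0.26), epithelial markers (10, 0.07), cytosolic heat shock (17, 0.12), apoptosis regulators (26, 0.12) and Klotho and FGF receptors (6, -0.30). By edgeR these held 5, 3, 1, 4, 4 and 3 genes at an unadjusted p under 0.05, against 16.6% of all genes in either direction. DESeq2 called 2, 1, 1, 2, 1 and 0, against 3.79% of all genes in either direction. Replicates 2 and 3 alone called 1, 7, 5, 8, 6 and 2 higher and 7, 2, 1, 0, 2 and 1 lower, against 14.9% and 13.6% of all genes.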
